A study of Mus musculus with 20 samples.

Results

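The transcripts of 8 genes for regulators of G-protein signalling (RGS proteins), Rgs1, Rgs2, Rgs4, Rgs5, Rgs10, Rgs16, Rgs18 and Rgs19, were followed in the translatome of epididymal adipose tissue (epiAT) adipocytes. They were chosen by symbol, with earlier results of the same comparisons known, and each matched 1 Ensembl identifier, so that 8 of the 46078 genes in the deposited table and 8 of its 22 Rgs genes are described. Because measured values led to the choice, the levels and fold changes of these 8 genes are given as a description. No p-value is printed for them. Whether a gene of the 8 met a threshold on p, with all mice or with some left out, is also a description and not evidence of an effect. The libraries came from translating ribosome affinity purification followed by sequencing (TRAP–seq), in which GFP-tagged ribosomes are pulled down and the mRNA bound to them is sequenced. All 20 mice were AdipoERCre x NuTRAP animals, labelled as being on a C576BL6 background, and had received tamoxifen 2 times at 4 to 5 weeks of age, the chow controls included. The inducible Cre is driven by the Adipoq promoter, and tamoxifen switches on the ribosome tag in the cells that express it, so the mark reports adipocytes at the time of tamoxifen.

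In the short arm, C mice ate chow to 18 weeks of age, H mice were 18 weeks old after 12 weeks of high-fat diet (HFD), CC_s mice ate chow to 26 weeks, and HC mice were 26 weeks old after 12 weeks of HFD and 8 weeks of chow, and every one of these groups held 3 mice. In the long arm, CC_l mice ate chow to 31 weeks, HH mice were 31 weeks old after 25 weeks of HFD, CCC mice ate chow to 39 weeks, and HHC mice were 39 weeks old after 25 weeks of HFD and 8 weeks of chow, and every one of these groups held 2 mice. Each replicate was a separate mouse, and the library codes in the labels differ between the arms, so that each comparison lies within 1 of them. Every diet or weight-loss group was set against the chow group of its own age and arm, which asks how obesity and later weight loss relate to the level of each transcript.

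RGS proteins speed up the hydrolysis of GTP by the alpha subunits of heterotrimeric G proteins and so shorten the signal that a G-protein-coupled receptor sends into the cell. In adipocytes such receptors convey catecholamines, adenosine, prostaglandins and metabolites to lipolysis and insulin action. Several RGS genes are also known for other cells of fat depots, Rgs1 and Rgs18 for leukocytes and platelets and Rgs4 and Rgs5 for the cells around small vessels, which matters for a pulldown from whole tissue.

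Of the 8 genes, 6 lie on chromosome 1 (mm10, positions from GENCODE vM21), which holds 12 of the 22 Rgs genes. Rgs2 (chr1:143999338-144004161, minus strand), Rgs1 (chr1:144242296-144249242, minus strand) and Rgs18 (chr1:144752683-144775435, minus strand) stand in a stretch of 776 kb together with Rgs13 and Rgs21. Rgs5 (chr1:169655501-169695813, plus strand) and Rgs4 (chr1:169741477-169747642, minus strand) run towards each other with a gap of 45.7 kb between them. Rgs16 lies at chr1:153740349-153745468 on the plus strand, Rgs10 at chr7:128373621-128418758 on the minus strand and Rgs19 at chr2:181688419-181693977 on the minus strand. The exons of Rgs16 share 236 bp with the antisense gene Gm28513, so its counts are uncertain, because the library preparation did not mark strand.

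Since Rgs4 and Rgs5 ran in parallel across the mice, the 250 bases before the start of each are shown, as RefSeq gives them on GRCm38.p6 in the direction of the gene. Capitals mark matches to the searched letters, which were the TATA box (TATAAA), the CCAAT box (CCAAT), the GC box (GGGCGG), the cAMP response element (TGACGTCA) and its shorter core (TGACG), the AP-1 site (TGANTCA), the E-box (CACGTG), a kappa B site (GGGANTTCC), an ETS core (CCGGAA) and a GATA core (AGATAA), each on both strands.
Rgs4, chr1:169747643-169747892, minus strand: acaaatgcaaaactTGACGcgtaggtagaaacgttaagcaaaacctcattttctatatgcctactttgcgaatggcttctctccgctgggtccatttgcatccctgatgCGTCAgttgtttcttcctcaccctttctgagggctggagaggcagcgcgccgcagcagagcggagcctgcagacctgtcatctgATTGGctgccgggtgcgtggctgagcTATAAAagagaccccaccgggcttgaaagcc
Rgs5, chr1:169655251-169655500, plus strand: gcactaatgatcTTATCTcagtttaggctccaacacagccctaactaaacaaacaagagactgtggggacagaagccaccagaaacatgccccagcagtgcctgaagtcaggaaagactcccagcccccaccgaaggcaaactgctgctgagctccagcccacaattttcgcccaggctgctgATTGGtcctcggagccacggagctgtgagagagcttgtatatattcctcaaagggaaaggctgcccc
Both windows held a CCAAT box on the strand opposite to the gene, 57 bases before the start of Rgs4 and 67 bases before that of Rgs5, a match found in 33.8% of the 32851 promoters in the RefSeq table. The box was not particular to this pair. The same window of Rgs16 held it on the opposite strand 68 bases before the start, and that of Rgs2 on the strand of the gene 94 bases before the start. The Rgs4 window also held a TATA box 31 bases before the start (12.4% of promoters) and the shorter cAMP core at 236 and 141 bases before it (17.8%), and the Rgs5 window a GATA core 238 bases before the start (9.99%). The bases G and C made up 53.6% of each window, against a median of 52.4% over all promoters. The same window of Rgs2 was richer in G and C, at 72.4%, and held 4 GC boxes (32.7% of promoters) and 2 of the shorter cAMP cores. A match of letters is a description and not evidence of a bound factor. No promoter entry for Rgs1 or Rgs18 was used here.

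Depth ranged from 10710277 to 36738954 counts per library, and 3 counts stood for 0.0815 to 0.252 CPM (counts scaled to a common library size with TMM factors), so that values of that size are at the limit of detection. Transcripts of adipocytes dominated the marker lists, with Fabp4, a fatty acid carrier, at a mean of 41100 CPM, and the 12 adipocyte markers summed to between 23700 CPM in HC replicate 3 and 153000 CPM in C replicate 3. Markers of other cells were present as well. The 15 macrophage markers, led by Lyz2 and Laptm5, summed to between 327 and 5910 CPM, and the 10 endothelial markers, led by Cldn5 and Pecam1, to between 124 and 2630 CPM. The 7 spermatid markers, led by Prm2 and Prm1, reached 3470 CPM in CC_l replicate 1 and 526 CPM in HC replicate 3, against at most 125 CPM in the other mice. The 7 epididymal markers, led by Lcn8 and Defb42, reached 1200 CPM in H replicate 2 and 394 CPM in H replicate 1, against at most 153 CPM in the other mice. CC_l replicate 1 and HC replicate 3 therefore stood apart by spermatid markers and H replicate 2 by epididymal markers. The called differences of the 8 genes that used these 3 libraries are given with and without them. In bulk libraries of this kind, fewer cells of a type and less RNA per cell cannot be told apart.

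Per kilobase of exon, the order of levels in the 10 chow mice was Rgs5 (32.4 CPM per kb), Rgs19 (10.9), Rgs10 (9.05), Rgs2 (7.51), Rgs4 (3.18), Rgs18 (2.05), Rgs16 (0.829) and Rgs1 (0.366). Among chow mice the spread was wide for Rgs5 and Rgs4, with Rgs5 at 147 ± 103 CPM and Rgs4 at 9.36 ± 6.37 CPM (SD, n = 10). It was narrower for Rgs2 (24.4 ± 4.81 CPM) and Rgs19 (23.2 ± 8.22 CPM). Over all 20 mice the highest value of Rgs5 was 26.8 times its lowest and that of Rgs4 18.7 times, whereas Rgs19 spanned 4.93 times and Rgs2 5.89 times. The plot of CPM by mouse shows all 8 genes in all groups.

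**Figure D1:**
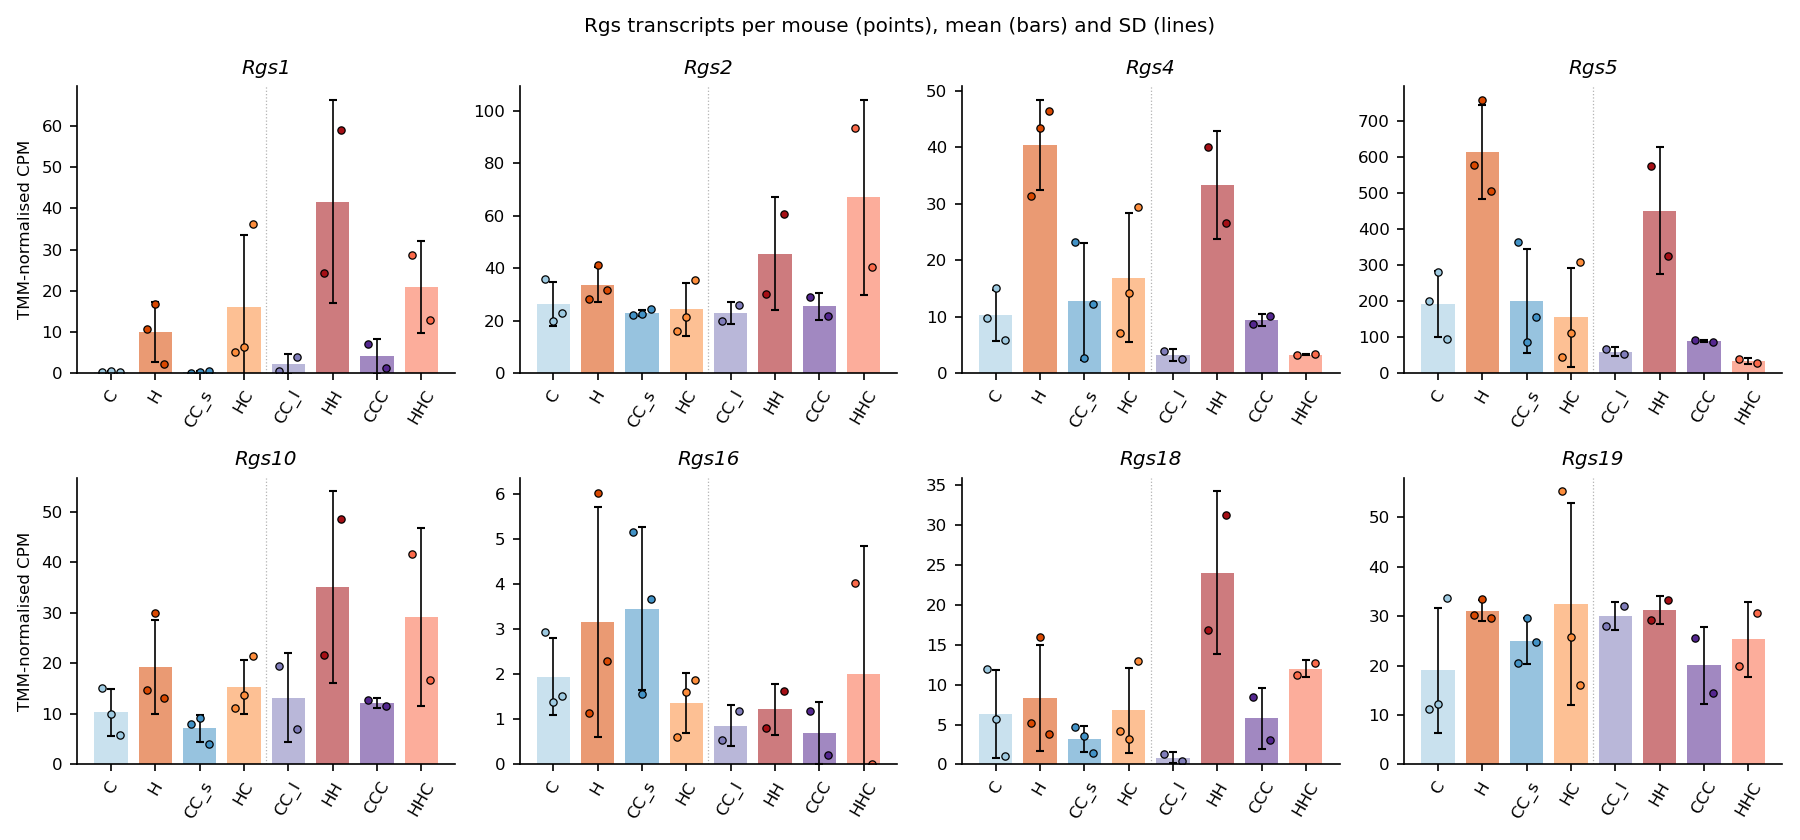
Level of each of the 8 Rgs transcripts in TMM-normalised CPM (vertical axes, each with its own scale from 0) in the 8 groups. Points are mice, bars are group means and lines are SD (cut at 0), and the dotted line parts the short arm from the long arm. Rgs4 and Rgs5 stand highest in H and HH, with means of 40.4 and 33.3 CPM and of 613 and 450 CPM, and Rgs1 in HH, at 41.7 CPM.

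Differentially expressed genes (DEGs) were those with an unadjusted p under 0.01 (edgeR, quasi-likelihood) and a log2 fold change of 1 or more in either direction. By that rule 2 of the 8 genes were higher in H than in C (Rgs1 and Rgs4), where 6.49% of the 21464 tested genes were DEGs. In HC against CC_s it was 1 of 8 (Rgs1) against 1.74% of all genes, in HH against CC_l 4 of 8 (Rgs1, Rgs4, Rgs5 and Rgs18) against 6.79%, and in HHC against CCC 1 of 8 (Rgs2) against 3.12%. None of the 8 was a DEG in the lower direction in any of the 4 comparisons. The groups did not overlap for 3 of 8 genes in H and C (23.9% of all genes), 2 in HC and CC_s (13.8%), 6 in HH and CC_l (55.3%) and 6 in HHC and CCC (28.8%), all higher than chow except Rgs4 and Rgs5, which were lower in HHC. The median log2 fold change of the 8 genes was 0.80, 0.40, 2.16 and 1.16 in these 4 comparisons, beside −0.15, 0.27, −0.23 and −0.06 over all tested genes. As the genes were selected with these comparisons in view, nothing is read from the counts.

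**Figure D2:**
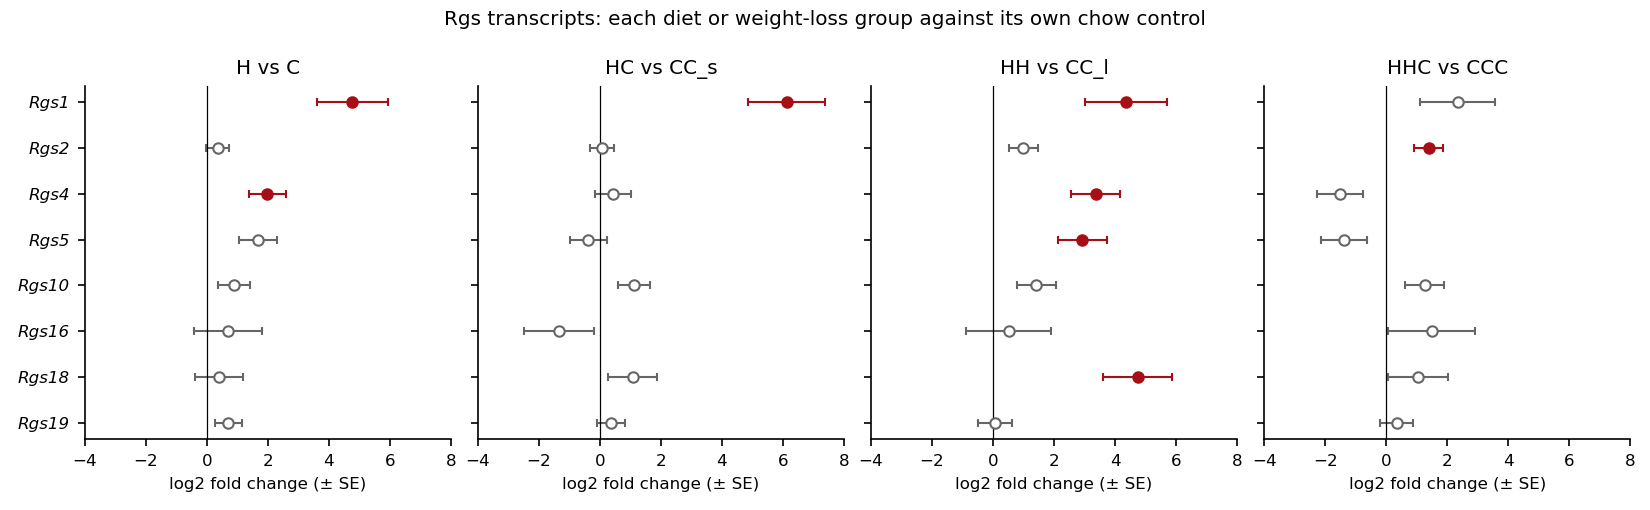
Log2 fold change of each Rgs transcript (horizontal axes, bars are SE) in the 4 comparisons, each group against its own chow control. Filled red points are DEGs, with Rgs1 at 4.77, 6.13 and 4.36 in H, HC and HH, Rgs4 at 1.99 and 3.37 in H and HH, Rgs5 at 2.92 and Rgs18 at 4.74 in HH, and Rgs2 at 1.39 in HHC.

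Rgs1, a regulator best known from lymphocytes and myeloid cells, where it dampens chemokine receptor signals, was close to the limit of detection in the chow mice of the short arm and higher in every obese and formerly obese group. It stood at 0.218, 0.496 and 0.358 CPM in the C mice and at 10.7, 16.8 and 2.30 CPM in the H mice, so that all 3 H mice were above all 3 C mice (log2 fold change 4.77 ± 1.16, SE). Without H replicate 2, the library with the most epididymal transcripts, the log2 fold change was 4.16. After weight loss Rgs1 was still high. The CC_s mice had 0 (a count of 0 that allows up to 0.199 CPM), 0.164 and 0.507 CPM, and the HC mice 5.15, 6.42 and 36.2 CPM (log2 fold change 6.13 ± 1.26). The highest of these values was in HC replicate 3, which stood apart by its markers, and without it the log2 fold change was 4.67. In the long arm the CC_l mice had 0.366 and 3.80 CPM and the HH mice 24.2 and 59.1 CPM (log2 fold change 4.36 ± 1.35). Without CC_l replicate 1 the log2 fold change was 3.46 and Rgs1 was no longer a DEG, and the same held without HH replicate 2 (3.58) and with only the compared groups (4.57). The CCC mice had 7.05 and 1.10 CPM and the HHC mice 28.7 and 12.9 CPM, again without overlap, at a log2 fold change of 2.35 ± 1.23 that did not meet the rule. In both arms the older chow group and the younger one overlapped in range, so no trend with age is read from the chow mice.

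The macrophage markers moved with Rgs1 in H, HC and HH. Their sum was 340 to 663 CPM in C and 900 to 4330 CPM in H, 342 to 483 CPM in CC_s and 718 to 2410 CPM in HC, and 327 to 558 CPM in CC_l and 4360 to 5910 CPM in HH. In CCC it was 1050 to 1210 CPM and in HHC 932 to 2840 CPM, which overlapped. Of the 15 macrophage markers, 9 were DEGs in H, 8 in HC and 14 in HH, all higher. In HHC 0 were DEGs in edgeR, and DESeq2 likewise called 0. The 1 marker with a nominal p under 0.05 there (edgeR) was Cd14, which was lower (log2 fold change −1.60 ± 0.61). Of the 15, 12 had positive values in HHC and 4 were higher without overlap, where 28.8% of all genes did not overlap. Cd14 and Csf1r (−0.81 ± 0.49) were lower without overlap. None of the 15 was at 0 in any group. Lyz2, lysozyme of myeloid cells, rose in H (log2 fold change 3.06 ± 0.60, adjusted p = 0.0145, edgeR with Benjamini-Hochberg adjustment) and in HH (3.88 ± 0.76, adjusted p = 0.0247). Across the 20 mice log2 CPM of Rgs1 and of the macrophage sum had a Pearson r of 0.85 (Spearman 0.87, and r = 0.81 without the 2 mice farthest from the median of the sum), 0.84 within the short arm and 0.85 within the long arm. The part of macrophages in the Rgs1 values was not tested.

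Rgs4 and Rgs5, small RGS proteins that blunt signals of receptors coupled to Gi and Gq and are much used as markers of pericytes and vascular smooth muscle, ran in parallel. Rgs5 was at 201, 279 and 94.9 CPM in the C mice and 578, 758 and 504 CPM in the H mice (log2 fold change 1.68 ± 0.62, not a DEG). Rgs4 stood at 9.69, 15.0 and 5.91 CPM in C and 31.3, 43.4 and 46.5 CPM in H (log2 fold change 1.99 ± 0.61, a DEG). All H mice were above all C mice for both genes. Rgs4 met the rule in 2 of the 6 fits that left out a mouse, and not without H replicate 2 (1.93), H replicate 3 (1.87), C replicate 1 (1.97) or C replicate 3 (1.71), nor with RLE scaling (1.87). After 8 weeks of chow the pair overlapped with the controls. Rgs5 was at 362, 85.1 and 155 CPM in CC_s and 45.0, 110 and 308 CPM in HC (log2 fold change −0.38 ± 0.61), and Rgs4 at 23.2, 2.62 and 12.2 CPM in CC_s and 7.01, 14.2 and 29.5 CPM in HC (0.42 ± 0.59).

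In the long arm the same pair took both directions. Rgs5 was at 67.5 and 51.4 CPM in CC_l and 575 and 325 CPM in HH (log2 fold change 2.92 ± 0.80), and Rgs4 at 3.90 and 2.49 CPM in CC_l and 40.1 and 26.5 CPM in HH (3.37 ± 0.80). Both HH mice were far above both CC_l mice. Rgs4 stayed a DEG in each of the 4 fits without 1 mouse (3.06 to 3.75, the latter without CC_l replicate 1). Rgs5 did so in 1 of 4, and not without HH replicate 1 (2.47), CC_l replicate 1 (3.14) or CC_l replicate 2 (2.77). In the weight-loss groups the order was the opposite. Rgs5 was at 90.4 and 87 CPM in CCC and 39.4 and 28.3 CPM in HHC (−1.39 ± 0.76), and Rgs4 at 8.60 and 10.1 CPM in CCC and 3.19 and 3.34 CPM in HHC (−1.52 ± 0.76). Both HHC mice were below both CCC mice for both genes, and neither difference met the DEG rule. For Rgs5 the HHC group had the lowest mean of the 8 groups, at 33.9 ± 7.84 CPM (SD, n = 2), and for Rgs4 HHC (3.26 ± 0.107 CPM) and CC_l (3.19 ± 1.00 CPM) overlapped at the bottom.

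The endothelial markers had the same directions as this pair in H, HH and HHC, and the mural markers in the long arm. The summed endothelial markers were at 350 to 933 CPM in C and 2270 to 2630 CPM in H, at 248 to 287 CPM in CC_l and 1180 to 2550 CPM in HH, and at 372 to 835 CPM in CCC and 124 to 161 CPM in HHC. In CC_s (240 to 1190 CPM) and HC (328 to 1360 CPM) they overlapped. Of the 10 endothelial markers, 7 were DEGs in H and 9 in HH, all higher, and 4 were lower DEGs in HHC, where all 10 had a nominal p under 0.05. All 10 were higher without overlap in H and in HH and lower without overlap in HHC, where 23.9%, 55.3% and 28.8% of all genes did not overlap. None was a DEG in HC, where edgeR gave 0 at a nominal p under 0.05 and DESeq2 called 0. Pecam1, an adhesion protein of endothelium, was at a log2 fold change of 1.95 ± 0.62 in H (adjusted p = 0.11), 3.05 ± 0.79 in HH (adjusted p = 0.0539) and −1.87 ± 0.76 in HHC (adjusted p = 0.389), in edgeR with Benjamini-Hochberg adjustment. The 12 pericyte and smooth muscle markers, led by Mcam and Acta2, summed to 308 to 393 CPM in CC_l and 780 to 1300 CPM in HH, with 4 DEGs, and to 471 to 806 CPM in CCC and 278 to 282 CPM in HHC, with 2 lower DEGs. In C they reached 2200 CPM in replicate 1 and overlapped with H (1180 to 1410 CPM), where 2 of 12 were DEGs (Kcnj8 and Abcc9) and others had negative values, such as Mcam at −0.44 ± 0.44 and Myh11 at −2.38 ± 0.98. None of these 22 markers was at 0 in any group.

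Across the 20 mice log2 CPM of Rgs4 and Rgs5 had a Pearson r of 0.92 with each other, 0.87 in the short arm and 0.95 in the long arm. Each had an r of 0.95 with the endothelial sum, 0.95 within the short arm and 0.94 within the long arm. With the pericyte and smooth muscle sum the r was 0.75 for Rgs4 and 0.79 for Rgs5, 0.52 and 0.59 within the short arm, 0.92 and 0.90 within the long arm, and 0.87 and 0.85 without the 2 mice farthest from the median of that sum. With the macrophage sum it was 0.54 for Rgs4 and 0.44 for Rgs5, 0.71 and 0.64 within the short arm and 0.73 and 0.65 within the long arm. With the summed markers of progenitors and fibroblasts it was 0.69 and 0.63. These were 0.70 and 0.73 within the short arm and 0.92 and 0.83 within the long arm, so high values were not particular to the vascular lists. The mice share depth, scaling and tissue composition in these relations, which are given as a description, and the part of vascular cells in the Rgs4 and Rgs5 values was not tested.

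**Figure D3:**
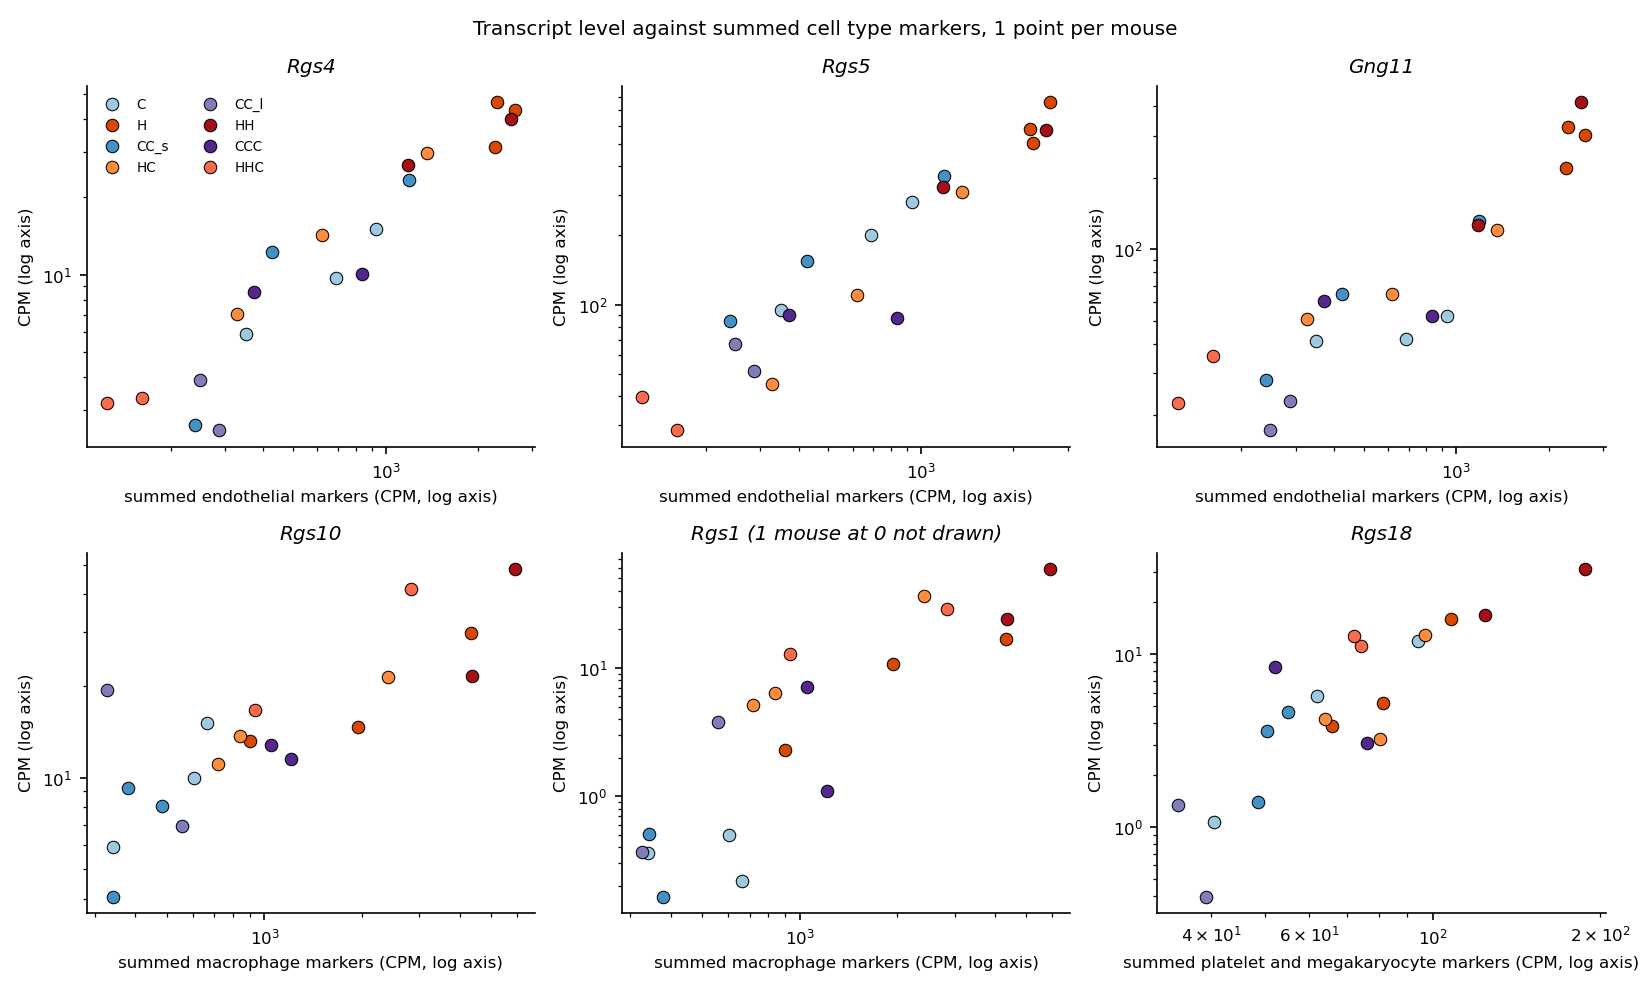
CPM of single transcripts (vertical log axes) against summed CPM of cell type markers (horizontal log axes), 1 point per mouse and 1 colour per group. Against the endothelial sum, Rgs4, Rgs5 and Gng11 run from the HHC and CC_l mice at the lower left to the H and HH mice at the upper right (r of 0.95, 0.95 and 0.92). Rgs1 and Rgs10 against the macrophage sum (0.85 and 0.82) and Rgs18 against the platelet and megakaryocyte sum (0.85) scatter more.

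Rgs18, a regulator typical of platelets, megakaryocytes and myeloid cells, differed most in the long obese group. It was at 1.34 and 0.393 CPM in CC_l, the lowest group, and at 16.8 and 31.2 CPM in HH, the highest (log2 fold change 4.74 ± 1.14). It met the DEG rule in 3 of the 4 fits that left out a mouse. Without CC_l replicate 1 the value was 5.92, and without CC_l replicate 2 it was 4.19 and not a DEG. In HHC both mice (11.2 and 12.7 CPM) were above both CCC mice (8.48 and 3.07 CPM), at a log2 fold change of 1.05 ± 0.98. The short arm overlapped throughout, with 12.0, 5.75 and 1.07 CPM in C, 5.21, 15.9 and 3.84 CPM in H, 4.63, 3.60 and 1.39 CPM in CC_s and 4.19, 3.21 and 12.9 CPM in HC.

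Beside Rgs18, the 10 platelet and megakaryocyte markers summed to 34.8 to 39.1 CPM in CC_l and 124 to 188 CPM in HH. Most of that sum was Pf4, the platelet factor also made by some macrophages, at 24.3 CPM in CC_l and 133 CPM in HH (log2 fold change 2.45 ± 0.42, adjusted p = 0.0181, edgeR with Benjamini-Hochberg adjustment), the only DEG among the 9 tested markers in edgeR, whereas DESeq2 called 2 higher. Clec1b, a platelet receptor, was at 0.632 CPM in CC_l and 2.77 CPM in HH (2.13 ± 0.79, adjusted p = 0.175, edgeR). Of the 9 tested markers, 5 were higher in HH without overlap, in a comparison in which 55.3% of all genes did not overlap. Itgb3, an integrin subunit of platelets, was at 3.27 CPM in CC_l and 7.64 CPM in HH, and Itga2b, its partner, at 4.79 and 5.12 CPM. Gp6, a collagen receptor of platelets, was at 0 in 6 of the 8 groups. Rgs18 had a Pearson r of 0.85 with this sum and of 0.77 with the macrophage sum over 20 mice. In HHC the 9 tested platelet markers had a median log2 fold change of −0.51, with 2 positive. There 0 were higher and 2 lower without overlap (28.8% of all genes did not overlap), while Rgs18 was higher without overlap. In H the median of the markers was 0.68 and 3 were higher without overlap (23.9% of all genes did not overlap), whereas Rgs18 overlapped. In HC the median was 0.76 and 1 was higher without overlap (13.8% of all genes did not overlap), and Rgs18 overlapped. The part of either cell type in the Rgs18 values was not tested.

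Rgs10, a small regulator of Gi signalling that is abundant in microglia and macrophages, had positive log2 fold changes in all 4 comparisons, with large errors. The log2 fold changes were 0.90 ± 0.52 for H, 1.11 ± 0.53 for HC, 1.41 ± 0.64 in HH and 1.26 ± 0.64 in HHC. No comparison met the DEG rule. Leaving out 1 mouse moved the value in H to 0.44 (without H replicate 2), that in HH to between 0.74 (without HH replicate 2) and 2.35 (without CC_l replicate 1), and that in HHC to 0.45 (without HHC replicate 1). In HC the mice (11.1, 13.7 and 21.4 CPM) were all above those of CC_s (8.07, 9.25 and 4.05 CPM), and in HH (21.6 and 48.5 CPM) and HHC (41.7 and 16.7 CPM) both were above their controls (19.4 and 6.94 CPM in CC_l, 12.8 and 11.5 CPM in CCC). The H mice (14.7, 29.9 and 13.2 CPM) overlapped with C (15.1, 10.0 and 5.91 CPM). Its Pearson r with the macrophage sum was 0.82 over 20 mice, 0.90 in the short arm and 0.70 in the long arm.

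Rgs2, which acts mainly on Gq, met the DEG rule in HHC. It was at 29.1 and 21.9 CPM in CCC and 93.4 and 40.6 CPM in HHC (log2 fold change 1.39 ± 0.48, a DEG). Both HHC mice were above both CCC mice, but without HHC replicate 1 the value was 0.66, and Rgs2 was not a DEG without that mouse, without CCC replicate 1 (1.61), without CCC replicate 2 (1.20), with only the compared groups (1.54) or with the replicate number as a block (1.39). Both HH mice (30.2 and 60.7 CPM) were above both CC_l mice (19.9 and 25.8 CPM), at 0.99 ± 0.47 (0.42 without HH replicate 2), which was not a DEG. In the short arm the levels were even, with 35.7, 19.9 and 22.9 CPM in C, 28.1, 41.2 and 31.8 CPM in H, 22.2, 22.6 and 24.3 CPM in CC_s and 15.9, 21.5 and 35.5 CPM in HC (0.36 ± 0.38 and 0.07 ± 0.38). HHC replicate 1 also had the highest sum of the 14 lymphocyte markers, led by Nkg7 and Cd79b, at 233 CPM against at most 84.2 CPM in the other mice, and Rgs2 had an r of 0.76 with that sum (0.64 without the 2 mice farthest out). Of those 14 markers, 1 was a DEG in H, 2 in HC and 0 in HH and HHC (edgeR, 2 and 5 at a nominal p under 0.05), where DESeq2 called 1 and 4. With the macrophage sum the r of Rgs2 was 0.68, and 0.66 without the 2 mice farthest from the median of that sum. HHC replicate 1 also had the higher macrophage sum of its group, at 2840 CPM against 932 CPM. The part of lymphocytes or macrophages in the Rgs2 values was not tested.

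For Rgs19 and Rgs16 every diet group overlapped with its chow group. Rgs19, a regulator of Gi alpha subunits found on vesicles of many cell types, was at 11.2, 12.3 and 33.7 CPM in C and 30.3, 33.5 and 29.6 CPM in H. It was at 20.5, 29.7 and 24.8 CPM in CC_s and 55.3, 25.8 and 16.1 CPM in HC, at 28.0 and 32.0 CPM in CC_l and 29.3 and 33.3 CPM in HH, and at 25.6 and 14.5 CPM in CCC and 20 and 30.7 CPM in HHC. Its log2 fold changes lay between 0.06 ± 0.55 in HH and 0.71 ± 0.45 in H. Without C replicate 3, the chow mouse at 33.7 CPM, the value in H was 1.40 and a DEG. Rgs19 was the only 1 of the 8 with a positive r with the adipocyte sum (0.46), while the r of the others lay between −0.60 and −0.06. Rgs16, a regulator of Gi and Gq induced by many stimuli, stayed between 0 and 6.03 CPM. The mice were at 2.94, 1.39 and 1.52 CPM in C, 1.14, 6.03 and 2.30 CPM in H, 5.16, 1.56 and 3.67 CPM in CC_s, 0.618, 1.61 and 1.88 CPM in HC, 0.549 and 1.18 CPM in CC_l, 0.820 and 1.63 CPM in HH, 1.19 and 0.219 CPM in CCC and 4.02 and 0 CPM in HHC, where the count of 0 allows up to 0.162 CPM. Each comparison overlapped, with log2 fold changes from −1.34 ± 1.14 in HC to 1.49 ± 1.42 in HHC. Without HHC replicate 1, which left only the mouse at 0, the fitted value in HHC was −6.97 and a DEG, a value that is no bound because that group was then at 0.

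The other 14 Rgs genes are those left over by a choice made with earlier results known. Their calls are therefore not set against those of the chosen genes. Of these 14 genes 11 were tested, as Rgs8, Rgs13 and Rgs21 did not exceed 0.454 CPM in any mouse. Rgs3, with the highest mean CPM of them (17.4, not scaled to length), was the only DEG in H against C, with 8.60, 15.0 and 3.94 CPM in C and 33.7, 27.7 and 27.9 CPM in H (log2 fold change 1.70 ± 0.48, adjusted p = 0.0769, edgeR with Benjamini-Hochberg adjustment). It was not a DEG without C replicate 1 (1.66), without C replicate 3 (1.33) or with only the compared groups (1.60). None of the 11 was a DEG in HC, HH or HHC in edgeR, where 2, 1 and 2 had a nominal p under 0.05, and DESeq2 called 2, 1 and 0 of 14. The median log2 fold change of the 11 was −0.30, 0.95, −0.65 and 0.65 in H, HC, HH and HHC. Rgs22, a gene expressed in testis, was highest in CC_l replicate 1, at 39.5 CPM, the library with the most spermatid transcripts.

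Among the 16 genes for alpha subunits, which bind GTP and pass the signal on, Gnai1 and Gnai2, both of the inhibitory Gi class on which most RGS proteins act, had the highest CPM (means of 328 and 292, not scaled to length). Gnai1 was not a DEG in any comparison (log2 fold change −0.48 ± 0.69 in H, −0.42 ± 0.69 in HC, −0.87 ± 0.85 in HH and 0.53 ± 0.84 in HHC). Gnai2 rose in H, from 93.3, 141 and 184 CPM to 494, 338 and 440 CPM (1.60 ± 0.43, adjusted p = 0.0636), in each of the 6 fits that left out a mouse. Gna15, an alpha subunit of blood cells, was higher in HC (1.03, 1.61 and 2.87 CPM) than in CC_s (0.265, 0.164 and 0.253 CPM) at 2.99 ± 1.02 (adjusted p = 0.536), a call that held in 1 of 6 such fits (2.52 without HC replicate 3 to 3.28 without HC replicate 1) and neither with the replicate block (3.08) nor with halved counts (2.90). The 5 mice without which the call was lost were HC replicates 2 and 3 and all of CC_s, and the values then lay between 2.52 and 3.12. Gnal, an alpha subunit of the stimulatory class, was at 12.6 and 10.8 CPM in CCC and 28.8 and 121 CPM in HHC (2.68 ± 0.69, adjusted p = 0.207), and it was not a DEG without HHC replicate 2 (1.29) or CCC replicate 2 (2.57). Part of the exons of Gnal (852 bp) is shared with Mppe1 on the other strand, so its counts are uncertain. In all, 1 alpha gene of 15 tested was a DEG in H, 1 in HC and 1 in HHC, and none in HH (edgeR, 0 at a nominal p under 0.05, and 0 in DESeq2). All adjusted p-values of the subunits and of the other regulators are from edgeR with Benjamini-Hochberg adjustment over all tested genes.

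The beta and gamma subunits held the clearest changes outside the 8 genes. Gng11, a gamma subunit abundant in endothelium and platelets, was at 41.9, 52.4 and 40.9 CPM in C and 219, 303 and 327 CPM in H (log2 fold change 2.65 ± 0.54, adjusted p = 0.0163). It was at 17.2 and 23.0 CPM in CC_l and 416 and 127 CPM in HH (3.76 ± 0.69, adjusted p = 0.0187, and 3.57 without CC_l replicate 1). In HC (50.8, 64.6 and 121 CPM) it overlapped with CC_s (132, 28.2 and 65.0 CPM, 0.07 ± 0.50), and in HHC (22.5 and 35.3 CPM) both mice were below CCC (60.5 and 52.4 CPM, −0.97 ± 0.62, adjusted p = 0.599). The effect in HH exceeded that in HHC by 4.72 ± 0.92 on the log2 scale (adjusted p = 0.0329 for the difference, 1 of 175 genes with an adjusted p under 0.05 among 21464), a test added after the data had been seen. In the short arm the effect in H exceeded that in HC by 2.58 ± 0.72 (adjusted p = 0.325 for the difference, 0 genes with an adjusted p under 0.05). Like Rgs4 and Rgs5, Gng11 had its highest means in H and HH and its lowest in CC_l and HHC. Over 20 mice its r was 0.94 with Rgs4 and 0.92 with the endothelial sum, whose part in its values was not tested.

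Gngt2, a gamma subunit first known from cone photoreceptors, was at 10.9, 8.28 and 26.4 CPM in C and 72.7, 102 and 58.0 CPM in H (log2 fold change 2.35 ± 0.44, adjusted p = 0.0111), and was a DEG in HH (1.90 ± 0.53, adjusted p = 0.0728) and HHC (1.71 ± 0.53, adjusted p = 0.276) as well. The value in HH was 2.18 without CC_l replicate 1. The call in HH was lost without CC_l replicate 2 (1.70), and that in HHC without HHC replicate 1 (1.35), without CCC replicate 2 (1.14) and with only the compared groups (1.84). In HC all 3 mice (28.8, 32.5 and 37.3 CPM) were above CC_s (15.3, 13.5 and 14.2 CPM) without meeting the rule (1.20 ± 0.43). Over 20 mice Gngt2 had an r of 0.73 with the macrophage sum (0.77 in the short arm, 0.71 in the long arm) and of 0.77 with Rgs1, and the part of macrophages in its values was not tested. Its exons share 234 bp with Abi3 on the other strand. Gng2, which shares 897 bp with Gm48283 in the same way, rose in H (9.91, 10.6 and 19.5 CPM in C, 54.6, 42.6 and 46.5 CPM in H, 1.84 ± 0.34, adjusted p = 0.00995) and was a DEG in HHC (20.3 and 19.5 CPM in CCC, 101 and 43.9 CPM in HHC, 1.86 ± 0.41, adjusted p = 0.17). The latter was 1.13 and not a DEG without HHC replicate 1, and 2.01 and not a DEG with only the compared groups. Gnb4, a beta subunit, was lower in HHC (33.4 and 13.6 CPM) than in CCC (73.4 and 83.7 CPM), at −1.74 ± 0.47 (adjusted p = 0.228), and not a DEG without HHC replicate 2 (−1.23) or with only the compared groups (−1.59). Gnb1, with the highest mean CPM of the list (462), was not a DEG in any comparison. Of the 15 tested beta and gamma genes, 3 were DEGs in H, 0 in HC (edgeR, 1 at a nominal p under 0.05, while DESeq2 called 1), 2 in HH and 3 in HHC, all higher but Gnb4.

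The genes for other regulators of the cycle (receptor kinases, arrestins and guanine nucleotide exchange factors) and for effectors gave 1 DEG. Grk4, a receptor kinase, was lower in HH (4.01 and 4.40 CPM) than in CC_l (38.9 and 5.63 CPM), at −2.40 ± 0.81 (adjusted p = 0.135). Its high value was in CC_l replicate 1, the library with 3470 CPM of spermatid markers, and without that library the log2 fold change was −0.41. The call was also lost without HH replicate 1 (−2.31), without HH replicate 2 (−2.45), with the replicate block (−2.48) and with only the compared groups (−2.39). Grk2, with the highest mean CPM of these 14 (65.5), and Arhgef12, with the highest of the 7 effectors (123), were not DEGs in any comparison, and the exons of Arhgef12 share 1209 bp with Gm5831 on the other strand. Of the 7 effectors, 0 were DEGs in edgeR (0, 0, 1 and 0 at a nominal p under 0.05 in H, HC, HH and HHC) or DESeq2. Over all 61 tested genes of the 5 lists, 5 were DEGs in H, 1 in HC, 3 in HH and 4 in HHC. Among all tested genes the shares of DEGs were 6.49%, 1.74%, 6.79% and 3.12%. At an adjusted p under 0.05 the count of the 61 was 3 in H (2.12% of all tested genes), 0 in HC (0% of all, 4 of the 61 at a nominal p under 0.05), 1 in HH (2.07%) and 0 in HHC (0%, 9 of the 61 at a nominal p under 0.05). DESeq2, which covered 67 genes of these lists, gave 10, 0, 4 and 4 at that threshold. Its counts over all 21464 genes were 2053, 250, 1952 and 435.

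**Figure D4:**
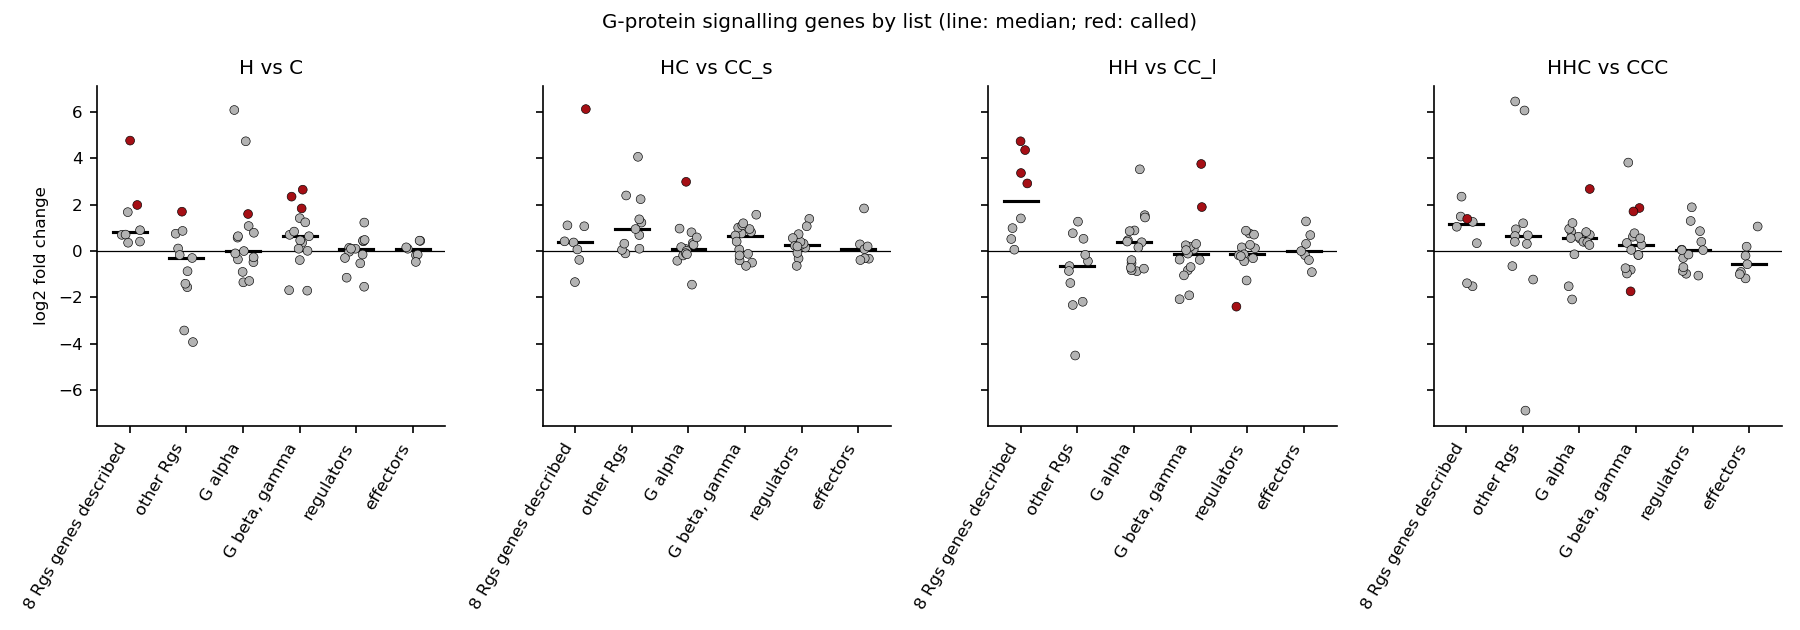
Log2 fold change (vertical axis, shared) of every tested gene in the 6 lists of G-protein signalling genes, 1 panel per comparison. Points are genes, red points are DEGs and black lines are list medians, which for the 8 Rgs genes described lie at 0.80, 0.40, 2.16 and 1.16. The 8 genes were chosen with these values known, and the list of other Rgs genes holds those left over. The remaining lists were formed by function.

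The genes whose log2 CPM ran most like each of the 8 over the 20 mice differed by gene and are given as a description. Rgs1 ran with Slc37a2 and Cd68, a lysosomal protein of macrophages (r = 0.94 for both), and Rgs10 with Pla2g7 (0.90) and Cgas (0.89), the cytosolic DNA sensor. Rgs4 ran with Abcc9, a potassium channel subunit of mural cells, and Car4 (0.96 for both), and Rgs5 with Abcc9 (0.97) and Dach1 (0.96). Rgs18 ran with Clec4b1 (0.89) and Gpr34 (0.88), Rgs2 with Cxcl16 and Kctd12 (0.86 for both), Rgs16 with Zbtb18 (0.82) and Epn3 (0.80), and Rgs19 with Akirin1 and Snap47 (0.96 for both). Without the 2 mice farthest from the median these values were 0.92 and 0.93, 0.86 and 0.89, 0.96 and 0.96, and 0.96 and 0.95 for the partners of Rgs1, Rgs10, Rgs4 and Rgs5, while for Rgs2 they fell to 0.71 and 0.72 and for Rgs16 to 0.76 and 0.56.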

How the data were processed

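TRAP–seq counts of 20 mice in 8 groups were used. Per the labels and the methods, the authors trimmed paired reads with TrimGalore 0.6.6, aligned them to mm10 with HISAT2 2.2.1, counted them per gene with featureCounts (Subread 2.0.1) and deposited the counts, whole numbers without normalization. The annotation, strand setting and handling of pairs are not given in the sources used here, and 74.4% to 89.2% of nonzero counts per library were even. Symbols came from GENCODE vM21 for 98.0% of 46078 genes. The members and the gene lists were chosen with earlier results of these data known.

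With edgeR 4.0.16 in R 4.3.3, 21464 genes passed filterByExpr, counts were scaled by TMM, and all 20 libraries were fitted in 8 groups (quasi-likelihood). The study's thresholds set the DEGs (unadjusted p under 0.01, log2 fold change of 1 or more in either direction), and adjusted p-values (Benjamini-Hochberg) cover all tested genes. Log2 CPM used a prior count of 2. CPM per kb used exons of the GENCODE vM21 basic annotation. The scripts were tested on simulated data. Named were all 8 genes, every other G-protein gene that was a DEG, the most abundant gene of each of those lists, the 2 most abundant genes of each cell type list and the 2 genes most like each member. Genes named beyond this rule (Itga2b, Clec1b, Gp6, Kcnj8, Myh11, Cd14, Csf1r, Rgs22, Gnas and the untested Rgs genes) were chosen after their values were seen. Alternatives were RLE scaling, DESeq2 1.42.0, no filter, only the compared groups, the replicate number as a block, halved counts, an adjusted p threshold and leaving out each mouse. Limits from counts cover counting error only.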

Additional observations from a re-analysis of the deposited data

Results flagged for a closer look

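Rgs4 and Rgs5 had opposite directions in the 2 comparisons of the long arm. Every HH mouse was above every CC_l mouse, at log2 fold changes of 3.37 for Rgs4 and 2.92 for Rgs5, and every HHC mouse was below every CCC mouse, at −1.52 and −1.39. The differences between these effects were not tested, because the genes were chosen with the values known. Each side rests on 2 mice a group, and the 2 comparisons have separate control mice of the same arm.

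Gng11, a gamma subunit, had a larger effect in HH against CC_l than in HHC against CCC by 4.72 on the log2 scale (SE 0.92, edgeR interaction contrast, adjusted p = 0.0329), with both HH mice above CC_l and both HHC mice below CCC. The endothelial markers had the same order in these groups, and their part in it was not tested. The contrast was added after the data had been seen. In the short arm the effect of H against C exceeded that of HC against CC_s by 2.58 (SE 0.72, edgeR interaction contrast, adjusted p = 0.325). Every other interaction contrast that was run gave 0 of 21464 genes at an adjusted p under 0.05.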

How the results depend on the processing

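Of 352 log2 fold changes of the 8 genes under the alternatives, 336 moved by less than 1 SD, 16 by more, and 15 took the other sign. None of these sign changes was in a comparison in which that gene was called on all mice. Of these 15, 1 was then a DEG (Rgs16 in HHC without HHC replicate 1, −6.97). The count of the 8 called was 1, 0, 2 and 0 in H, HC, HH and HHC at an adjusted p under 0.05, 1 in H with RLE scaling, 2 in HHC with no filter on low counts, and 0 in HHC with only the compared groups. Leaving out 1 mouse gave 1 to 2 in H, 2 to 3 in HH and 0 to 1 in HHC. The other 61 G-protein genes gave 3, 0, 1 and 0 at an adjusted p under 0.05. DESeq2, which covered 67 genes of these lists, gave 10 in H and 4 in HC. No filter gave 10 in H, 3 in HC and 5 in HH, only the compared groups 2 in HC and 1 in HHC, and halved counts 0 in HC. Leaving out 1 mouse gave 4 to 9 in H, 0 to 1 in HC and 2 to 3 in HH and 2 to 6 in HHC. With the replicate number as a replicate block, 0 of the 8 was called in HHC and 0 of the 61 in HC. The labels name no litter or day for the numbers, and the deviations of mice with the same number correlated at −0.277 to 0.192, so they were taken to name mice and not to pair them. For the counts of calls not named here, the alternatives stayed within 1.5 times. Fits of only the compared groups tested fewer genes, and their median log2 fold change differed by −0.16, 0.21 and 0.18 in HC, HH and HHC. It was set against the median over all 21464 genes in the fit of all 20 libraries, so the sets of genes differ. Under other scalings the median moved by at most 0.1. The cause of the other moves was not tested. With 2 or 3 mice a group and a common dispersion of 0.462, a difference that was not called is not shown to be absent. The smallest difference that could be detected was not computed.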

Other observations

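Other marker lists were read in the same libraries. The 10 progenitor and fibroblast markers, led by Dcn and Col3a1, gave 4 DEGs in H, 1 in HC, 7 in HH and 0 in HHC (edgeR, 4 at a nominal p under 0.05, while DESeq2 called 2 lower), with all DEGs higher. Col3a1, a fibrillar collagen, rose in H (2.70 ± 0.67, adjusted p = 0.0467, edgeR) and HH (3.41 ± 0.85, adjusted p = 0.0461). Of the 10 markers of lipid-associated macrophages, led by Lpl, which the adipocyte list also holds, and Ctsd, 7 were DEGs in H, 5 in HC, 4 in HH and 0 in HHC (edgeR, 0 at a nominal p under 0.05, and 0 in DESeq2), with all DEGs higher. Of the 7 mesothelial markers, led by Upk3b and Gpm6a, 3 were lower in H, 1 was lower in HHC and 0 were DEGs in HC and HH (edgeR, 1 and 0 at a nominal p under 0.05, and 0 in DESeq2). Of the 12 adipocyte markers, 1 was higher and 2 lower in H, 1 was lower in HH, and 0 were DEGs in HC and HHC (edgeR, 0 and 1 at a nominal p under 0.05, while DESeq2 called 0 and 1). The spermatid list gave 5 DEGs in HC, which HC replicate 3 led, and 0 in the other comparisons (edgeR, 4, 4 and 0 at a nominal p under 0.05 in H, HH and HHC, and 0 in DESeq2), and the epididymal list 3 in H and 0 in the others (edgeR, 0, 1 and 0 at a nominal p under 0.05, and 0 in DESeq2).

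Gnas, the stimulatory alpha subunit that couples adrenergic receptors to cAMP, was listed at a mean of 3.44 CPM (0.538 to 13.4 CPM over the mice). Its exons share bases with 2 other genes, the most with Gm20721 on the other strand (1469 bp), and the counts of this locus are therefore uncertain.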
